A study of Mus musculus with 2 samples.

Results

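The 9 genes described here belong to the Hedgehog pathway, a signalling route between cells: Gli1, Gli2, Gli3, Ptch1, Smo, Hhip, Boc, Cdon and Gas1. They were found by symbol among 32285 genes counted in single cells of the injured tendon area of mice. The TrkA WT library is titled as the control, and the TrkA F592A library carries INMPP1 in its title. F592A is a point mutation in the kinase TrkA, a neurotrophin receptor, that opens the enzyme to a bulky inhibitor. Mice of both genotypes were 12 weeks old, and the injury site was taken 14 days after the operation from 3 mice pooled into 1 library per genotype. The sources used here do not say whether the WT mice were given the inhibitor, or how the tendon was injured. The counts do not read the mutated codon, so the genotype labels could not be checked from the files. With 1 library a genotype no difference below carries a test or a replicate error, and genotype, mutation, inhibitor and library cannot be told apart.

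Hedgehog ligands (Shh, Ihh and Dhh) bind the receptor Patched, helped by the co-receptors Boc, Cdon and Gas1. Free Patched holds Smoothened (Smo) inactive, and ligand lifts that hold. Smo then signals at the primary cilium to the Gli transcription factors, which act at their target genes. Gli1, Ptch1 and Hhip are themselves classical targets, which makes their transcripts a common readout of the pathway, and Gli1 marks progenitor-like cells of the tendon attachment and perivascular mesenchyme in mice.

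Filtering kept 11254 WT and 8449 F592A cells. Their median depth was 15873.5 and 17880 unique molecular identifiers (UMIs, tags for single captured RNA molecules) a cell. The libraries shared 764 cell barcodes, of which 114 WT and 112 F592A barcodes were among the cells kept. Without them the log2 ratio of Hhip in stromal cells was 1.31, against 1.33 with them, and no member's ratio moved out of its counting interval. Cells were clustered without the Hedgehog genes, and clusters were named from marker genes. The stromal class held 6547 WT and 4665 F592A cells in 9 clusters, and Tnmd and Scx, defining genes of tendon cells, had a UMI in 69.4% and 59.8% of them. Tnmd also had a UMI in 14.8% of neutrophils and Col1a1, a main tendon collagen, in 96.2%, which gives the level of free stromal RNA in these droplets. Levels are UMIs of a gene in 1000000 UMIs of a class (CPM). Ratios are log2 of F592A over WT CPM, and every 95% interval covers counting error only, not differences between mice.

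The sequence just before the transcription start is shown for the target genes Ptch1 and Hhip and for Gli2, whose window held the core of the Gli binding motif. Windows are the 250 bases before the RefSeq start on GRCm38.p6, read 5′ to 3′ along the gene. They are chr13:63565736-63565985 for Ptch1, chr8:80058009-80058258 for Hhip and chr1:119053620-119053869 for Gli2, each on the minus strand. The Ptch1 window lies inside the span of the longer Ptch1 gene model but overlaps no exon. Capitals mark a match on either strand to ACCACCC, the core, or to GGGCGG, a GC box.
Ptch1: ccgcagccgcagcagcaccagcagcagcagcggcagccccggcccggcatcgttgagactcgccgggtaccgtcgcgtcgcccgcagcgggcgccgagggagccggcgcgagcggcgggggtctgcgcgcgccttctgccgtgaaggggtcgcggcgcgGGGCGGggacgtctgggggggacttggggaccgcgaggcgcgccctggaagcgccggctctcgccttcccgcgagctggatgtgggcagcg
Hhip: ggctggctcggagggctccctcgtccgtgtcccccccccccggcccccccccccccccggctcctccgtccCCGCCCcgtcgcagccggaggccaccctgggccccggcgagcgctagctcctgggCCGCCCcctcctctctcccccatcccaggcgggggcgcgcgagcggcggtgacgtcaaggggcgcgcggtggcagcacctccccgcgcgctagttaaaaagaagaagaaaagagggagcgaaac
Gli2: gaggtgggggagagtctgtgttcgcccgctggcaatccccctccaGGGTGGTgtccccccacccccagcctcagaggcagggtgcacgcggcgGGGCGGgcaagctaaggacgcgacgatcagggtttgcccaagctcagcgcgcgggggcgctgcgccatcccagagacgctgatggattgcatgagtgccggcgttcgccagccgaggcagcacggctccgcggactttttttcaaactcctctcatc
The single core match, in Gli2, began 205 bases before the start and read GGGTGGT on the gene's strand. Of 10 genes looked up (the 9 members and Dhh), 8 had a window, and Gli1 and Boc had no entry. The full Gli motif GACCACCCA was in 0 of those 8 windows and in 0.225% of all 32851 windows. Its core ACCACCC, which the full motif contains, was in 1 of 8 and in 3.92% of all windows. The GC box was in 6 of 8 and in 32.7% of all windows. These matches describe letters in the windows and were not tied to any measured binding.

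Transcripts of the ligand Dhh lay mainly in endothelial cells. In them Dhh (desert hedgehog) stood at 12.3 CPM in WT (90 UMIs) and 13.8 CPM in F592A (136 UMIs), a log2 ratio of 0.17 (-0.22 to 0.57). That was 61.6% of all Dhh UMIs in WT and 81.9% in F592A, from a class that held 5.19% and 7.62% of the cells. Lymphatic endothelial cells had 13 and 9 Dhh UMIs, or 9.20 and 7.02 CPM. Mural cells, neutrophils and T or NK cells had none in either library. An unnamed cluster of low depth held 12 and 9 Dhh UMIs, 8.22% and 5.42% of the total. A few cells with Schwann cell markers, described further below, stood at 119 and 114 CPM. That was above the endothelial level, so endothelial cells held most Dhh UMIs but not the highest level. Stromal cells held 28 Dhh UMIs in WT and 10 in F592A, at 0.18 and 0.08 CPM. Shh had 4 UMIs in WT and 0 in F592A stromal cells, and Ihh had 4 and 3. The gene models of Dhh (chromosome 15, 98891152 to 98898540, GRCm38) and Rhebl1 overlap on the same strand, so a part of the Dhh counts could be shared with Rhebl1.

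Ptch1 (chromosome 13, 63508328 to 63573598) encodes the main Hedgehog receptor. Its level was highest in lymphatic endothelial cells, at 36.8 CPM in WT and at 53.0 CPM in F592A. Endothelial cells had 32.5 and 27.5 CPM. T or NK cells, which had no Dhh UMI, had 21.6 CPM (10 UMIs) and 36.9 CPM (31 UMIs), below endothelial cells in WT and above them in F592A. Mural cells (pericytes and smooth muscle) came next with 16.8 and 19.5 CPM. The intervals of lymphatic, endothelial and T or NK cells overlapped in WT, and in F592A that of T or NK cells (25.0 to 52.3 CPM) overlapped both endothelial classes, so the place of T or NK cells is not settled in either library. In stromal cells Ptch1 stood at 9.49 CPM in WT and at 10.5 CPM in F592A, in macrophages at 3.05 and 2.34 CPM, and neutrophils had 0 and 1 UMI. Endothelial cells had 2 Gli1 UMIs in WT and 6 in F592A, or 0.27 and 0.61 CPM, below the stromal levels. Lymphatic cells had 1 and 3 Gli1 UMIs, or 0.71 CPM (0.018 to 3.94) and 2.34 CPM (0.48 to 6.84), intervals wide enough to hold the stromal 1.15 and 2.64 CPM.

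Among the stromal clusters Ptch1 was lowest in adventitial fibroblast-like cells, at 6.13 CPM in WT and at 7.17 CPM in F592A. In WT the highest was the cluster led by Saa3 and Cxcl5, at 13.8 CPM, and in F592A the cluster led by Gdf10 and C7, at 15.8 CPM. For the class as a whole the log2 ratio was 0.14 (0.03 to 0.25). The marker gate (at least 1 Pdgfra UMI and none of Ptprc, Pecam1, Cdh5 and Rgs5) gave 0.03, and thinning to 2000 UMIs a cell gave 0.50. Without the Gdf10 and C7 cluster the stromal log2 ratio of Ptch1 was 0.014.

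Hhip (chromosome 8, 79965851 to 80058006), a membrane protein that binds and traps the ligands, was the rarest member. Stromal cells had 29 Hhip UMIs in WT and 57 in F592A, at 0.18 and 0.46 CPM, a log2 ratio of 1.33 (0.67 to 2.03). Outside the stromal class, 0 UMIs in WT and 2 in F592A were found, 1 in a macrophage and 1 in an endothelial cell. The Gdf10 and C7 cluster held 13 of the 29 UMIs in WT and 52 of the 59 in F592A. Hhip stood there at 1.52 and 2.82 CPM. Tenocyte-like, fibrochondrocyte-like and Prg4 and Tnn cells had none in either library. In the Igfbp2 and Wnt16 cluster the order was the opposite, with 10 UMIs in WT and 2 in F592A, and without the Gdf10 and C7 cluster the stromal log2 ratio of Hhip turned to -1.16. Only 14 WT and 29 F592A stromal cells had a Hhip UMI, of which 8 and 24 were in the Gdf10 and C7 cluster. The value of -1.16 thus rests on few cells. Hhip UMIs outnumbered the positive cells in both libraries, and the intervals do not cover UMIs that share a cell.

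The co-receptors Gas1, Boc and Cdon were stromal in both libraries, and each had its own order of clusters. Gas1 (chromosome 13, 60174405 to 60177365) encodes a lipid-anchored protein that presents ligand to Patched. It stood at 245 CPM in WT and at 313 CPM in F592A stromal cells, a log2 ratio of 0.35 (0.33 to 0.37), with a UMI in 79.5% and 85.7% of cells. Mural cells came next at 147 and 166 CPM, while macrophages had 5.85 and 5.92 CPM and endothelial cells 9.39 and 9.44 CPM. Within the mural class, pericyte-like cells had 153 and 190 CPM and smooth muscle-like cells 33.4 and 57.7 CPM. Thinned to 2000 UMIs, 32.5% of WT and 38.3% of F592A stromal cells had a Gas1 UMI, against 5.42% and 2.80% of neutrophils, whose median depths were 2502 and 3070 UMIs against 22474 and 24778 in stromal cells.

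Across stromal clusters Gas1 spanned from 69.1 CPM in WT and at 61.0 CPM in F592A fibrochondrocyte-like cells to 651 and 689 CPM in the Gdf10 and C7 cluster. The clusters that followed, Saa3 and Cxcl5 (429 and 453 CPM) and Angptl7 (433 and 424 CPM), overlapped in WT. The ratio within clusters was smaller than over the class in 8 of the 9, from -0.18 in cycling and in fibrochondrocyte-like cells to 0.22 in the Igfbp2 and Wnt16 cluster. The tenocyte-like cluster was the exception, at 175 CPM in WT and at 241 CPM in F592A (0.46, 0.40 to 0.52). Giving each cluster the same weight put Gas1 at 0.077, and without the Gdf10 and C7 cluster it was 0.15.

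Boc (chromosome 16, 44485049 to 44558897), an immunoglobulin-family co-receptor, stood at 31.0 CPM in WT and at 37.0 CPM in F592A stromal cells, a log2 ratio of 0.25 (0.19 to 0.31). It was highest in the Gdf10 and C7 cluster (75.3 and 66.7 CPM) and the Angptl7 cluster (60.4 and 55.1 CPM), and between 21.7 and 40.5 CPM in the other clusters of both libraries. Within the cluster where Boc was highest, F592A was the lower library (-0.18, -0.31 to -0.04), beside a median of -0.14 over all genes measured there. Giving each cluster the same weight put Boc at -0.0028. Other classes had little Boc: 4.73 and 6.74 CPM in mural cells and 1.06 and 0.68 CPM in macrophages.

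Cdon (chromosome 9, 35421128 to 35507652), the relative of Boc, stood at 46.2 CPM in WT and at 44.7 CPM in F592A stromal cells, a log2 ratio of -0.05 (-0.10 to 0.01). Its order of clusters differed from that of Boc. Cdon was highest in adventitial fibroblast-like cells, at 75.3 and 83.8 CPM, where Boc was near its lowest at 26.1 and 25.5 CPM. It was lowest in fibrochondrocyte-like cells (25.8 and 22.9 CPM) and tenocyte-like cells (28.0 and 29.9 CPM). Endothelial cells had 10.5 and 8.32 CPM.

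Smo (chromosome 6, 29735503 to 29761365), the membrane protein that carries the signal past Patched, varied least among stromal clusters. It ran from 42.8 to 56.9 CPM in WT and from 37.6 to 55.7 CPM in F592A. The stromal class stood at 49.6 and 48.7 CPM, a log2 ratio of -0.03 (-0.08 to 0.02), and 63.6% and 66.8% of cells had a UMI. Lymphatic endothelial cells had 31.1 and 38.2 CPM and mural cells 27.8 and 30.2 CPM, while macrophages had 1.60 and 1.53 CPM.

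**Figure D1:**
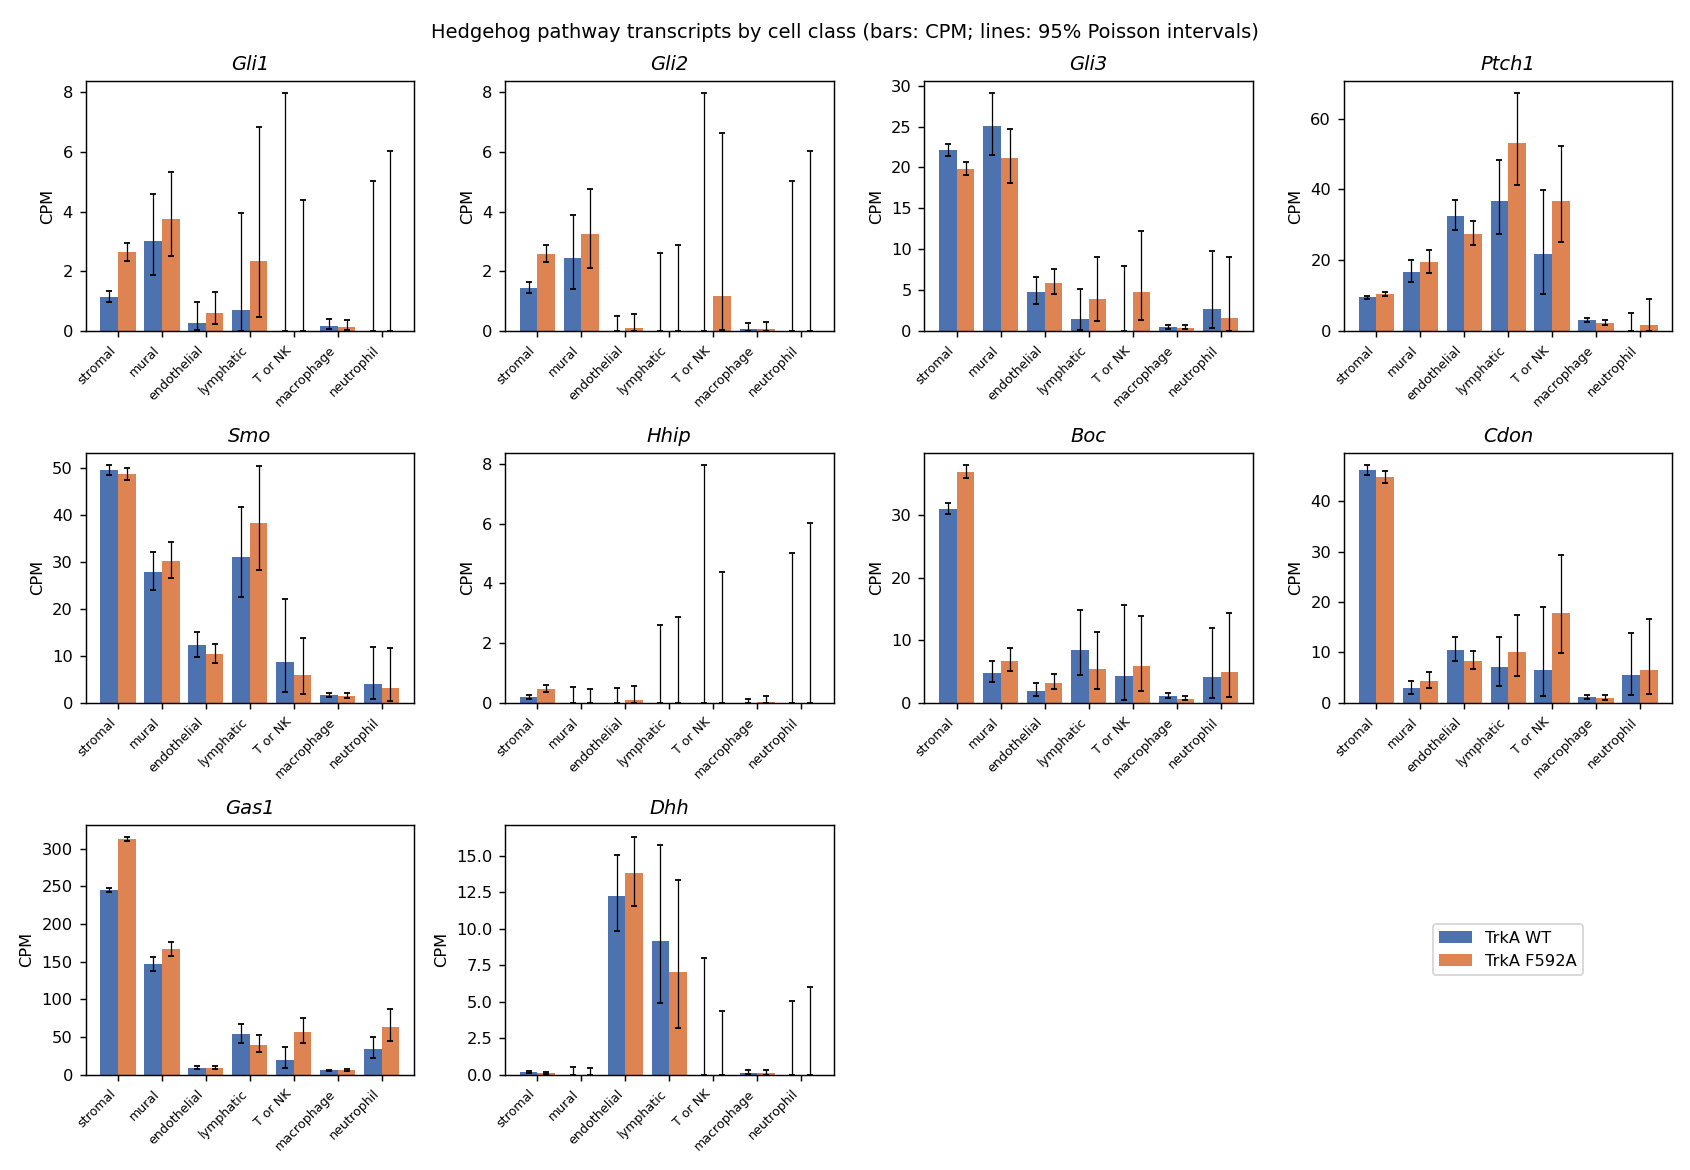
Levels of the 9 members and Dhh in 7 cell classes. Each panel is 1 gene, the y axis is CPM on its own linear scale from 0, bars are the WT (blue) and F592A (orange) library, and lines are 95% Poisson intervals that cover counting error only. Dhh stands in the endothelial classes, with 12.3 and 13.8 CPM in endothelial cells, and Ptch1 is highest in lymphatic endothelial cells at 36.8 and 53.0 CPM, while Gli1, Gli2, Gli3 and Gas1 stand in stromal and mural cells.

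The Gli factors were found in stromal and mural cells. Gli3 (chromosome 13, 15463235 to 15730026), which acts mainly as a repressor without ligand, stood at 22.1 CPM in WT and at 19.8 CPM in F592A stromal cells, a log2 ratio of -0.16 (-0.23 to -0.08). In mural cells it stood at 25.1 and 21.2 CPM. Tenocyte-like cells (10.6 and 13.3 CPM) and fibrochondrocyte-like cells (12.9 and 11.9 CPM) had less Gli3 than the other stromal clusters, which ran from 17.9 to 31.9 CPM over both libraries.

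Gli2 (chromosome 1, 118834132 to 119053619), the main activator downstream of Smo, had 228 stromal UMIs in WT and 318 in F592A. These were 1.45 and 2.59 CPM, a log2 ratio of 0.84 (0.59 to 1.09). The ratio was 1.37 (0.80 to 1.96) in the Igfbp2 and Wnt16 cluster and 1.35 (0.61 to 2.16) in the Gdf10 and C7 cluster. In the other 7 the interval included 0. Thinned to 2000 UMIs a cell, the stromal log2 ratio of Gli2 was 0.37, from 27 positive WT and 25 positive F592A cells. Clusters weighted equally gave 0.52 and the class without the Gdf10 and C7 cluster 0.57, both short of a 1.5-fold difference. Mural cells had 17 and 26 UMIs, at 2.44 and 3.24 CPM.

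Gli1 (chromosome 10, 127329882 to 127341974) encodes an activator that is itself switched on by the pathway. It had 181 stromal UMIs in WT and 324 in F592A, or 1.15 and 2.64 CPM, 2.30-fold higher (log2 interval 0.93 to 1.47). Without the Gdf10 and C7 cluster the stromal log2 ratio of Gli1 was 0.73. Macrophages, a class with little else of the pathway, had 5 and 3 Gli1 UMIs, or 0.18 and 0.13 CPM. Neutrophils had 0 UMIs, which allows up to 4.08 CPM in WT and up to 4.89 CPM in F592A and so gives no useful background at this depth. Thinned to 2000 UMIs, 23 of 6490 WT stromal cells (0.35%) and 29 of 4643 F592A cells (0.62%) had a Gli1 UMI, a ratio of shares of 1.76 (1.02 to 3.04). This left out 57 and 22 shallower cells. Without thinning the shares were 2.43% and 5.53%. Gli1 overlaps Arhgap9 and the antisense gene Gm47200 on the opposite strand, and the sources used here do not say whether counting used strand.

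The order of Gli1 over cell groups was led by the Gdf10 and C7 cluster, at 3.63 CPM (2.47 to 5.15) in WT and 8.14 CPM (6.89 to 9.55) in F592A. Mural cells came second, at 3.01 CPM (1.86 to 4.60) and 3.74 CPM (2.52 to 5.34). The intervals of these groups overlapped in WT and did not in F592A. The other stromal clusters lay between 0.40 and 2.62 CPM, with the Prg4 and Tnn cluster lowest in both libraries. Tenocyte-like cells had 24 and 23 UMIs, at 1.07 and 0.92 CPM (-0.23, -1.12 to 0.66). Gli1 was higher in F592A, with an interval above 0, in the Igfbp2 and Wnt16 cluster (1.01, 0.42 to 1.61), in fibrochondrocyte-like cells (1.47, 0.50 to 2.50) and in cycling cells (1.48, 0.26 to 2.72). The last 2 rest on 15 against 26 and 12 against 14 UMIs. In the Igfbp2 and Wnt16 cluster 2 of 8 measured members, Gli1 and Gli2, were at least 1.5-fold higher, beside 2.36% of genes measured there. Lower by as much were 0 of the 8, beside 4.60% of those genes. Gli1 had 43 UMIs there in WT and 59 in F592A, and Gli2 had 41 and 72. Both passed the minimum for a measured gene only with the F592A counts, so the count is a description.

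**Figure D2:**
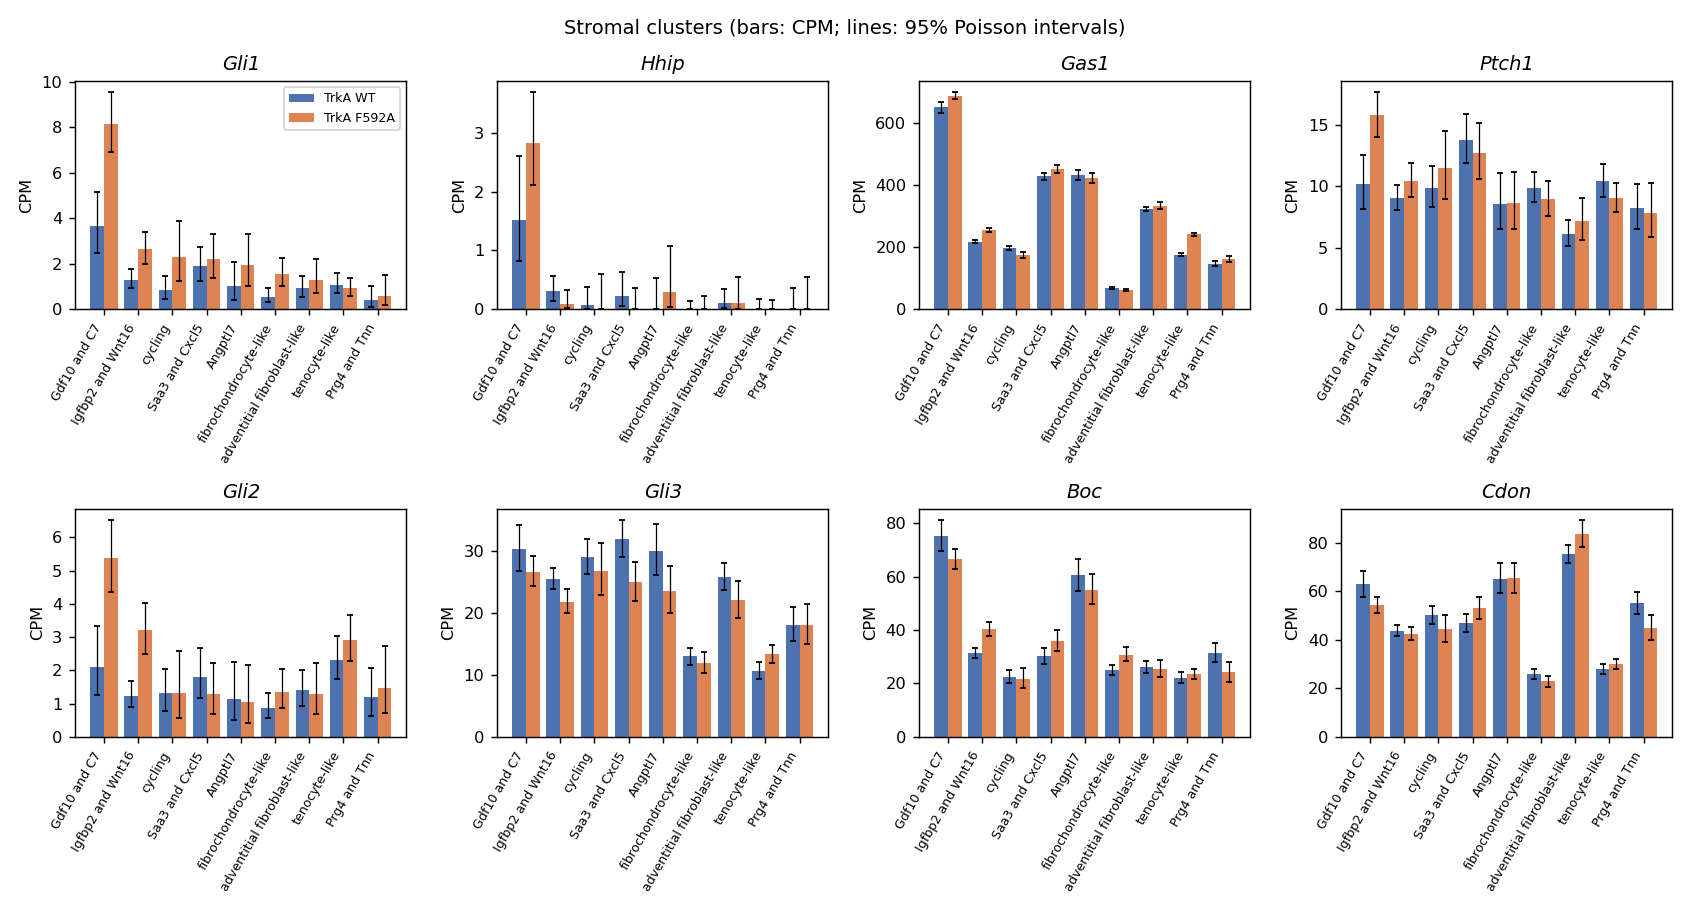
CPM of 8 Hedgehog genes in the 9 stromal clusters, ordered by Gli1 in the F592A library. Bars are the WT (blue) and F592A (orange) library on linear axes from 0, and lines are 95% Poisson intervals for counting error. Gli1, Hhip and Gas1 peak in the Gdf10 and C7 cluster in both libraries, whereas Cdon peaks in adventitial fibroblast-like cells at 75.3 and 83.8 CPM.

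Read as a list over the stromal class, 2 of the 8 members with at least 100 UMIs (Gli1 and Gli2) were at least 1.5-fold higher in F592A and 0 were lower. Of all 13967 genes with at least 100 stromal UMIs, 3.38% reached 1.5-fold upward and 4.98% reached 1.5-fold downward. Hhip, with 86 UMIs, was under that minimum. The median log2 ratio was 0.25 over all 9 members and 0.20 over the 8, against -0.08 over all genes. The count was 1, Gli1, when clusters were weighted equally, when cells were thinned to 2000 UMIs or when the Gdf10 and C7 cluster was left out. The marker gate gave log2 ratios of 1.17 for Gli1 and 0.67 for Gli2. The gate kept 4320 WT and 3231 F592A cells, of which 98.6% and 98.5% were in the stromal class. Markers of other cells and states also differed over the stromal class. The 6 macrophage markers summed to 164 CPM in WT and 68.8 CPM in F592A, the 6 cycling markers to 241 and 109 CPM and the 5 vascular smooth muscle markers, of which 1 reached 20 CPM, to 558 and 332 CPM. None of these markers was at 0 in either library. Without the cycling cluster the log2 ratios were 1.17 for Gli1 and 0.86 for Gli2. The part of the macrophage and smooth muscle markers in the ratios was not tested.

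Leaving out the Gdf10 and C7 cluster took the stromal ratios of Gli1, Gli2, Ptch1, Gas1 and Hhip to lower values, as given above. That of Boc went from 0.25 to 0.16, and those of Gli3, Smo and Cdon stayed within their counting intervals. The cluster had 509 WT and 958 F592A cells, or 4.52% and 11.3% of all cells. It held 14.5% of all Gli1 UMIs in WT against 40.8% in F592A. Within it, 3 of 8 members with at least 100 UMIs were at least 1.5-fold higher in F592A: Gli1, Gli2 and Ptch1. The background there was 3.26% of genes higher and 6.21% lower. All 3 had fewer than 100 UMIs in WT and passed the minimum with the F592A counts, so the count is a description. Gli1 had 31 and 150 UMIs (1.16, 0.60 to 1.77), Gli2 18 and 99 (1.35) and Ptch1 87 and 291 (0.63, 0.28 to 0.99). In CPM these were 3.63 and 8.14 for Gli1, 2.11 and 5.37 for Gli2 and 10.2 and 15.8 for Ptch1. Markers of other cell types were low in the cluster, and some differed between libraries. The 6 macrophage markers summed to 161 CPM in WT and 64.3 CPM in F592A, the 6 pericyte markers to 119 and 103 CPM and the 6 cycling markers to 12.5 and 5.59 CPM. Of the macrophage and cycling markers 0 of 6 were at 0 in either library, and their part in the ratios was not tested. Boc, Cdon and Smo stood at -0.18, -0.21 and -0.19 there, and Gli3 was also lower in F592A. These lie near the median of -0.14 over all 9731 genes measured in the cluster. Of the 8 measured members, 4 lay above that median.

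Finer clustering (resolution 1.2 in place of 0.8) divided that cluster, and the intervals of the Gli1 ratio in its 2 main parts did not overlap. The part led by Gdf10 and Hmcn2 had 120 WT and 445 F592A cells. In it Gli1 stood at 10.38 and 10.43 CPM (0.01, -0.71 to 0.79), Hhip at 5.19 and 5.70 CPM (0.14, -0.87 to 1.29) and Ptch1 at 16.6 and 17.4 CPM (0.06, -0.50 to 0.66). The 2 libraries thus had Gli1, Hhip and Ptch1 at levels whose intervals overlap in that part. Gli2 stood there at 2.08 and 5.82 CPM on 4 and 48 UMIs (1.49, 0.04 to 3.42). The part led by Myoc and C7 had 193 and 264 cells, and Gli1 there had 2 UMIs in WT and 26 in F592A (3.00, 1.00 to 6.12). Ptch1 stood there at 6.10 and 7.28 CPM (0.25, -0.63 to 1.19), so its interval included 0 in both of these parts. The cluster's remaining cells lay mainly in finer clusters led by Cxcl5 and Saa3 (83 WT and 172 F592A cells) and by Slurp1 and Cd55 (90 and 49). Levels in those cells are not given here. The 2 main parts therefore do not cover the Ptch1 ratio of the whole cluster, 0.63. Of the cluster's cells, 120 of 509 in WT and 445 of 958 in F592A lay in its Gdf10 and Hmcn2 part. What this mix adds to the ratios of the whole cluster was not tested.

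**Figure D3:**
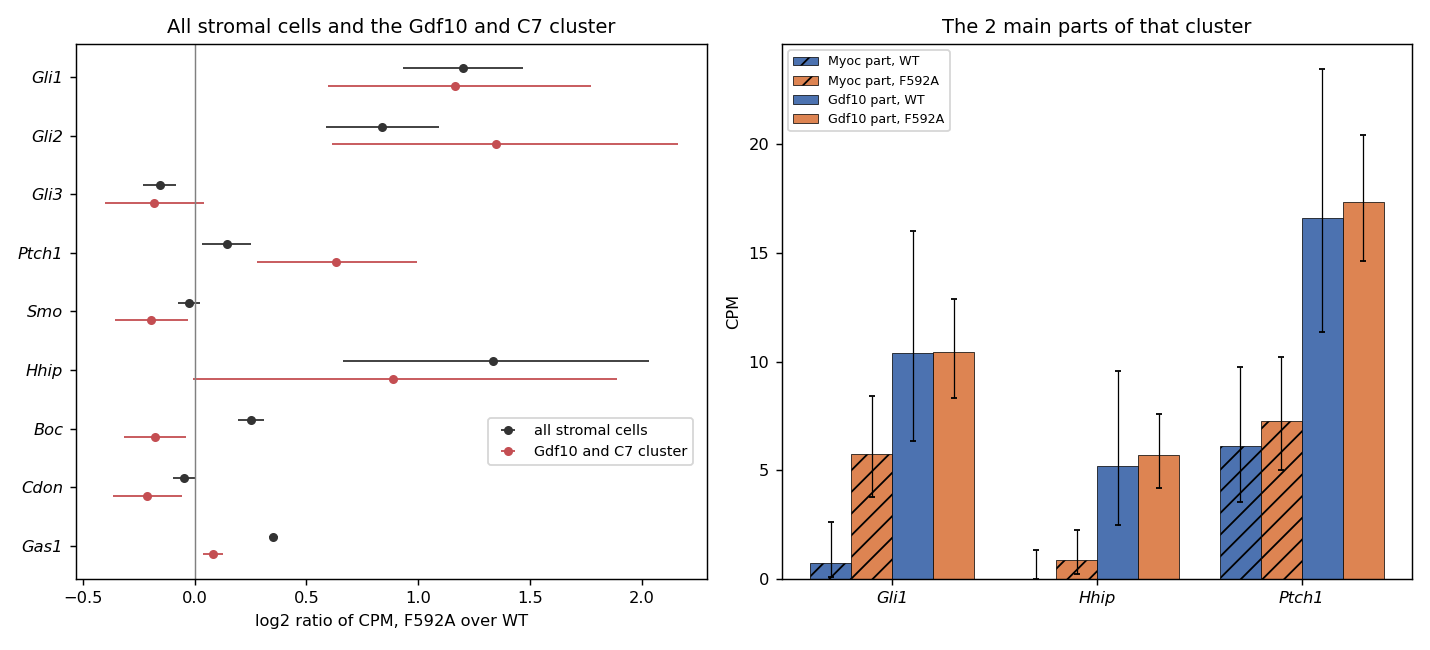
Left, log2 ratio of CPM, F592A over WT, for the 9 members in all stromal cells (black) and in the Gdf10 and C7 cluster (red), with 95% intervals for counting error and a line at 0. Right, CPM of Gli1, Hhip and Ptch1 in the Myoc part (hatched) and the Gdf10 part (plain) of that cluster for WT (blue) and F592A (orange), with 95% Poisson intervals. Gli1 stands at 10.38 and 10.43 CPM in the Gdf10 part, while its ratio over the whole cluster is 1.16.

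In the other named classes no member with at least 100 UMIs differed 1.5-fold. In endothelial cells 0 of 4 did, against 2.59% of genes higher and 8.37% lower. In mural cells 0 of 4 did (4.02% higher, 8.90% lower), in macrophages 0 of 2 (2.00% and 3.04%) and in lymphatic endothelial cells 0 of 2 (5.37% and 15.3%). Mural Gli1 had 21 UMIs in WT and 30 in F592A, a log2 ratio of 0.31 (-0.54 to 1.19). It overlaps the stromal interval (0.93 to 1.47), whose own central value lies just above it, and it includes the 0.73 found without the Gdf10 and C7 cluster. The difference between mural and stromal ratios was not tested.

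Ptch1 and Gli1 were found together in single stromal cells. With each cell thinned to 5000 UMIs, Ptch1 had a UMI in 9 of 44 Gli1-positive WT cells, 20.5% (9.80% to 35.3%), and in 4.36% (3.87% to 4.89%) of Gli1-negative cells. In F592A these were 10 of 76, 13.2% (6.49% to 22.9%), and 4.60% (4.00% to 5.25%). Without thinning the ratio of these shares was smaller, on more cells. Ptch1 was then in 48 of 159 Gli1-positive WT cells, 30.2% (23.2% to 38.0%), against 17.4% (16.5% to 18.3%). In F592A it was in 86 of 258, 33.3% (27.6% to 39.4%), against 18.3% (17.2% to 19.5%). For Gli3, Smo, Boc, Cdon and Gas1 the intervals of the Gli1-positive and Gli1-negative cells overlapped in both libraries after thinning, as they did for Gli2 and Hhip. Gli2 was in 0 of 44 Gli1-positive cells in WT (interval up to 8.04%), against 0.85%, and in 4 of 76, 5.26% (1.45% to 12.9%), against 1.32% in F592A. Without thinning the intervals of Gli2 did not overlap, at 9.43% (5.38% to 15.1%) against 3.24% (2.82% to 3.70%) in WT and at 12.02% (8.31% to 16.6%) against 5.85% (5.18% to 6.59%) in F592A. Hhip was apart without thinning in F592A, at 3.88% (1.87% to 7.01%) against 0.43% (0.26% to 0.67%), and Gas1 in WT, at 86.8% against 79.4%. The median depths of Gli1-positive and Gli1-negative cells were then 21782 and 22494 UMIs in WT and 23607.5 and 24812 in F592A. After thinning, Boc was at 13.6% against 14.7% in WT and at 26.3% (16.9% to 37.7%) against 16.99% in F592A. Within the Gdf10 and C7 cluster only 11 WT and 45 F592A cells were Gli1-positive after thinning, and the Ptch1 shares there were 9.09% and 8.89%, against 5.37% and 5.92% of Gli1-negative cells, with overlapping intervals. Those shares rest on 1 and 4 cells. Without thinning, Ptch1 in that cluster had a UMI in 32.4% (23.9% to 42.0%) of 111 Gli1-positive F592A cells and in 15.1% (12.8% to 17.7%) of Gli1-negative cells, intervals that did not overlap, at median depths of 19584 and 19034 UMIs. In WT these were 32.1% (15.9% to 52.4%) of 28 cells and 13.7% (10.8% to 17.1%), which overlapped.

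**Figure D4:**
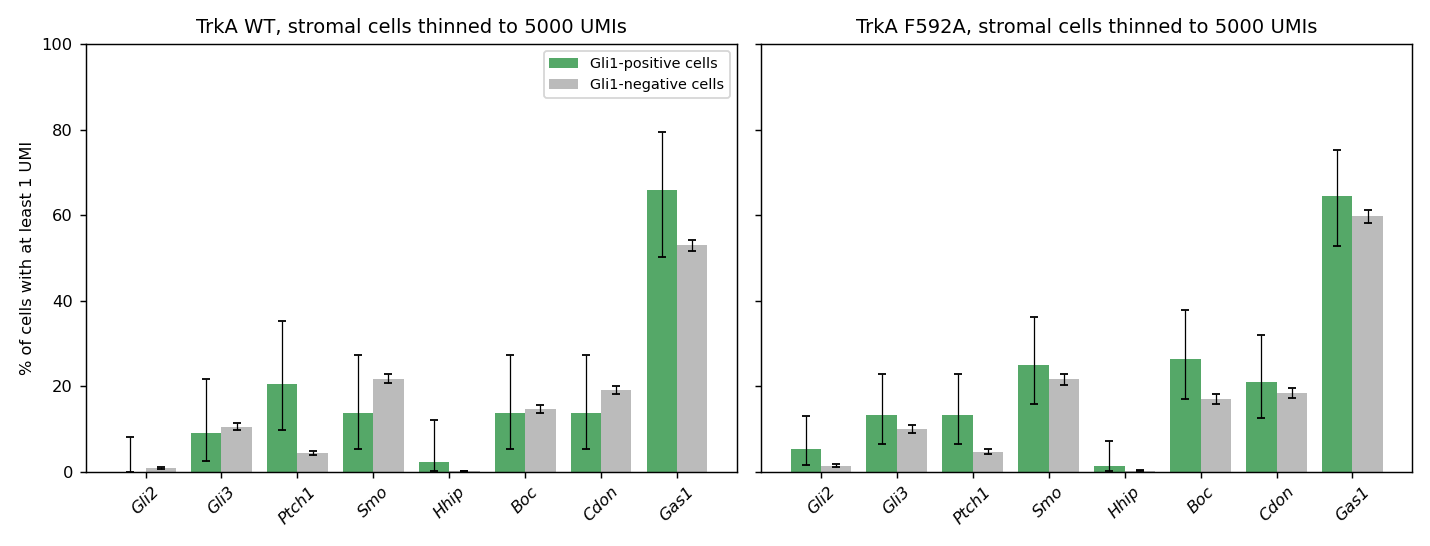
Share of Gli1-positive (green) and Gli1-negative (grey) stromal cells with at least 1 UMI of each other Hedgehog gene, after thinning every cell to 5000 UMIs, for WT (left) and F592A (right). The y axis is in % of cells, and lines are exact binomial 95% intervals for counting error. Ptch1 stands higher beside Gli1 in both libraries, at 20.5% (9 of 44 cells) against 4.36% in WT. Without thinning, which is not drawn, the WT shares were 30.2% and 17.4%.

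A wider list of 51 pathway genes, from ligand release to targets, had 42 genes with at least 100 stromal UMIs. At least 1.5-fold higher in F592A was 1 of them, Gpc3, and 0 were lower, beside the 3.38% and 4.98% of all measured stromal genes given above, so the count lies near that background. The median log2 ratio of the 42 was -0.03. Gpc3, a glypican that binds Hedgehog ligands at the cell surface, stood at 11.04 CPM in WT and at 26.1 CPM in F592A (1.24, 1.15 to 1.32). By role, 0 of 3 ligand and release genes, 1 of 7 receptor and membrane genes, 0 of 11 cytoplasmic regulators, 0 of 10 cilium genes and 0 of 11 target genes reached 1.5-fold in either direction. The targets next in order were Foxd1 (0.35, -0.02 to 0.71), Bcl2 (0.32, 0.19 to 0.44), Foxc2 (0.25, -0.01 to 0.52) and the steroid enzyme gene Hsd11b1 (0.24, 0.10 to 0.38). The lowest of the list were the target Pthlh, which encodes parathyroid hormone-related protein, at 18.2 and 12.5 CPM (-0.54, -0.63 to -0.45), the cilium gene Bbs2 (-0.42) and the kinase gene Stk36 (-0.32). The cilium motor gene Kif3a (-0.31) and the transport gene Ift172 (-0.20) followed.

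Genes with a pattern like Gli1 were ranked by Pearson's r of log2(CPM + 1) over 34 points, the classes and stromal clusters of both libraries, among 12737 genes. The points share 2 libraries and their free RNA, so r is a description. The 5 highest were Fst, an activin antagonist (0.86), the sodium channel gene Scn7a (0.84), Gpc3 (0.83), H6pd (0.82) and the complement gene C2 (0.82). Gli2 had r = 0.74 with Gli1 and Ptch1 0.32. Nearest to Hhip were Gria4, a glutamate receptor subunit (0.91), Tafa1 (0.90), Mlana (0.87), Fgf10, a fibroblast growth factor (0.85), and Amy1 (0.84), an amylase gene with near-identical copies whose counts are uncertain. In the Gdf10 and C7 cluster Fgf10 stood at 4.92 CPM in WT and at 10.4 CPM in F592A, and Mlana at 6.32 and 17.7 CPM. The log2 ratio there was 1.74 for Gria4, 0.33 (-0.31 to 1.01) for Amy1 and -0.02 (-0.65 to 0.63) for Tafa1. Of the genes most like Gli1, Gpc3 (1.24) and Fst (0.59) were higher in F592A there. For C2 (0.11), H6pd (0.09) and Scn7a (0.02) the interval included 0.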

How the data were processed

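UMI counts of 32285 genes were made by the authors and deposited per library, counted with Cell Ranger 6.0.1 per the file headers. Cell Ranger 2.1.1, Seurat and mm10 are named per the submitters' processing notes; the sources used here do not say which version applies. The WT and F592A libraries held 222874195 and 181472230 UMIs. Barcodes needed 500 genes, 1000 UMIs and no more than 15% mitochondrial UMIs, and Scrublet calls (345 WT and 215 F592A) were left out. Cells were clustered with scanpy 1.11.5 (2000 variable genes, 30 principal components, 15 neighbours, Leiden resolution 0.8) without the Hedgehog lists, and clusters were named from marker lists. UMIs were summed per cluster, class and library. CPM carry exact Poisson intervals, shares exact binomial intervals, and ratios exact conditional binomial intervals. Ratios of shares carry Katz log intervals. Genes with 100 or more UMIs, summed over the libraries, counted as measured. The ratio step was tested on simulated data. Named genes were the members, the 5 highest and 5 lowest of the wider list, its ligands, and the 5 genes most like Gli1 and Hhip, leaving out names of the form Gm plus digits or ending in Rik. Of the wider list, 1 gene is not reported here. Members and lists were chosen with earlier results of these data known. Scaling alternatives used edgeR 4.0.16 (TMM) and DESeq2 1.42.0 (median of ratios). Sequences are from RefSeq, gene coordinates from GENCODE on GRCm38.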

Additional observations from a re-analysis of the deposited data

Results flagged for a closer look

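Several members had log2 ratios (F592A over WT) of opposite sign in different stromal clusters, each with an interval that left out 0. The differences between clusters were not tested. Gli3 was 0.33 (0.09 to 0.58) in tenocyte-like cells and -0.36 (-0.59 to -0.13) in the Saa3 and Cxcl5 cluster. Boc was 0.37 (0.24 to 0.50) in the Igfbp2 and Wnt16 cluster and -0.37 (-0.66 to -0.10) in the Prg4 and Tnn cluster. Cdon was 0.18 (0.01 to 0.35) in the Saa3 and Cxcl5 cluster and -0.29 (-0.50 to -0.09) in the Prg4 and Tnn cluster. Gas1 was 0.46 (0.40 to 0.52) in tenocyte-like cells and -0.18 (-0.29 to -0.08) in cycling cells. Haemoglobin genes were among the 10 leading genes of the Prg4 and Tnn cluster, and their part in its ratios was not tested.

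Dhh UMIs were also found in cells outside any named class. An unnamed cluster of low depth, with Schwann, muscle and keratin markers mixed, held 12 Dhh UMIs in WT and 9 in F592A. All 21 lay in cells with at least 3 of 5 Schwann cell markers, a group of 11 WT and 6 F592A cells formed after these values were seen. In the marker cells Dhh stood at 119 CPM in WT and at 114 CPM in F592A, 8 of the 17 cells had a Dhh UMI, and Gli1 had 0 UMIs.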

How the results depend on the processing

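No paired analysis was possible because each genotype has 1 library and the labels give no replicate numbers, and for the same reason no replicate could be left out. The count of 2 members at least 1.5-fold higher in stromal cells was 1 with cells thinned to 2000 UMIs, with clusters weighted equally and without the Gdf10 and C7 cluster, and 2 under the other 10 settings. The median log2 ratio of the 9 members, 0.25, was 0.37, 0.077 and 0.014 under those 3 settings and from 0.22 to 0.31 under the others. Boc turned to -0.0028 with equal weights and Hhip to -1.16, on few positive cells, without the Gdf10 and C7 cluster. The log2 ratio of Gli1 ran from 0.73 to 1.28 and that of Gas1 from 0.077 to 0.41 over 13 settings. TMM and median-of-ratios scaling each moved every ratio up by 0.06, which turned Smo (0.03) and Cdon (0.01), whose intervals included 0, above 0. The share of genes at least 1.5-fold higher, 3.38%, was 7.51% with a minimum of 10 UMIs and 1.83% with a minimum of 20 CPM in the higher library. The ratio of Gli1-positive shares, 1.76, was 2.42 at 5000 UMIs and 2.28 without thinning. Where a value is given for another setting, the cause was not tested. Settings that leave out the Gdf10 and C7 cluster, the shared barcodes or the cartilage-marker clusters were chosen after seeing the data. Depth limits Gli1, Gli2 and Hhip most: several clusters hold fewer than 10 UMIs of each in a library.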

Other observations

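The unnamed cluster of low depth (225 WT and 179 F592A cells, median 3647.5 UMIs) had Smo at 68.3 CPM in WT and at 53.5 CPM in F592A, Gas1 at 166 and 152 CPM, Cdon at 36.1 and 41.2 CPM and Boc at 21.5 and 27.2 CPM. Col1a1 had a UMI in 99.8% of these cells and Tnmd in 54.5%. Gli1 had 3 UMIs there in WT and 2 in F592A. The unnamed immune cluster, which mixes mast, dendritic and plasma cell markers, had 20 Ptch1 UMIs in WT and 11 in F592A, at 10.5 and 4.63 CPM, with 1 and 0 Gli1 UMIs.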
